A study of Mus musculus with 12 samples.

Results

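The genes described here are 9 members of the transforming growth factor beta (TGF-beta) pathway. They comprise the ligands Tgfb1, Tgfb2 and Tgfb3, the receptors Tgfbr1, Tgfbr2 and Tgfbr3, and the intracellular proteins Smad2, Smad3 and Smad7. The members were found by gene symbol among the 35453 entries of the mRNA table, and all 9 were present with values in every library. All 9 had a mean log2 value of at least 4 and so stood among the 14098 genes tested. The 4T1 line, a mammary carcinoma of the mouse that spreads to distant organs, had been inoculated into Balb/c mice. Mice of the stress group were restrained for 2 hours daily over 28 days in succession, and mice of the control group carried 4T1 tumours without any treatment. Tumours of both groups were collected 35 days after inoculation and gave 3 mRNA and 3 miRNA libraries per group. The labels do not say whether the libraries of a group came from separate mice, so the p-values measure only the spread between these libraries.

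TGF-beta ligands are secreted in a latent form, held by a propeptide and by latent TGF-beta binding proteins in the matrix, and act only after release. The active ligand binds the type II receptor Tgfbr2, which phosphorylates the type I receptor Tgfbr1, and Tgfbr1 in turn phosphorylates Smad2 and Smad3. These receptor-regulated SMADs pair with Smad4 and enter the nucleus, where they alter transcription, and Smad7, itself induced by the pathway, shuts the receptors off. In mammary tumours the pathway is known to restrain growth of epithelial cells early on, and later to favour the epithelial to mesenchymal transition (EMT), matrix deposition and metastasis. The study's title joins chronic stress to EMT and metastasis, so the comparison asks whether transcripts of this pathway's core differed between stressed and control tumours. Phosphorylation and ligand activation are not seen by RNA sequencing.

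None of the 9 members differed between the groups past the limma threshold of an adjusted p of 0.05, against 0.0355% of all 14098 genes tested (5 genes). Of the differences, 7 lay above 0 and the others, those of Tgfb1 and Tgfbr2, lay below. The median difference over the 9 members was 0.10 on the log2 scale, beside 0.0014 over all tested genes, and the median size of the difference regardless of sign was 0.10 against 0.0827. This background was not matched to the level of the members. Tgfbr3 was the only member whose stress libraries all lay above all control libraries, and no member's stress libraries all lay below. Over all tested genes the groups stood apart with stress higher in 12.1% and with stress lower in 12.3%, so 1 of 9 is near the background. At an unadjusted p under 0.05 the members again gave 1 gene, Tgfbr3, where 17.4% of all tested genes passed. The 95% limma intervals of all 9 differences lay between -0.39, the lower bound of Tgfbr2, and 0.43, the upper bound of Smad3. In whole tumours, a lower share of the cells that express a gene and less RNA per cell cannot be told apart.

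**Figure D1:**
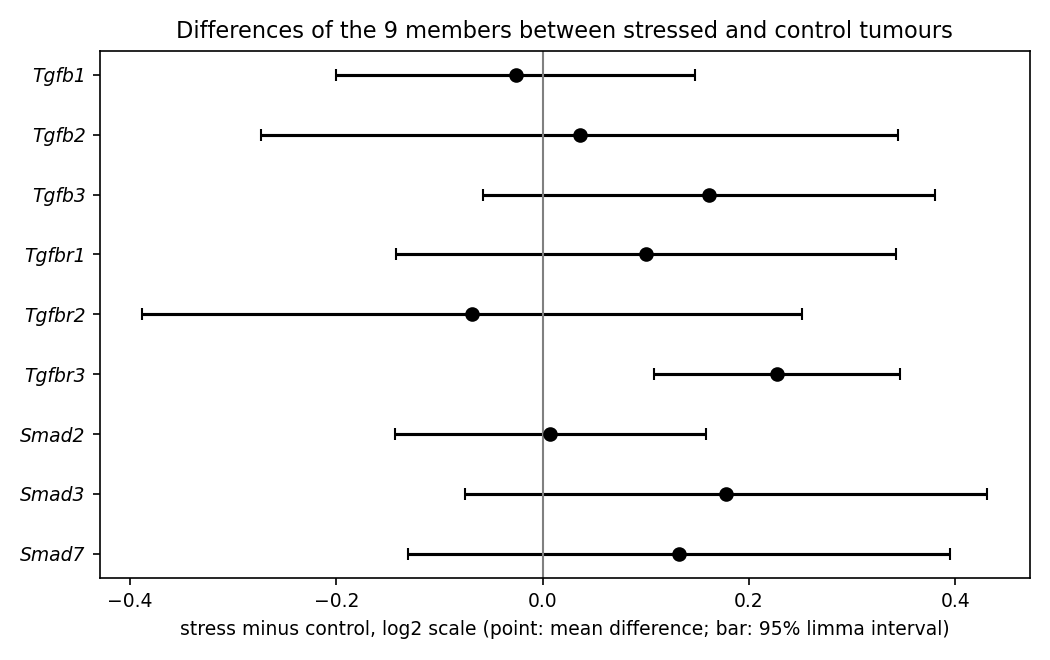
Difference between the mean log2 values of stressed and control tumours (horizontal axis) for each of the 9 members, with 95% limma intervals as bars (3 libraries per group). The interval of Tgfbr3 runs from 0.11 to 0.35 and is the only one that does not include 0, and its adjusted p of 0.121 did not pass the threshold.

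The libraries bear on all values that follow. The mRNA table held log2 values that the authors had normalized, with the sequencing depth unknown, and their spread was compressed at low levels: genes with a mean between 2 and 3 had a median range of 0.0773 over all 6 libraries, genes with a mean between 9 and 10 one of 0.262. The members' means lay from 7.48 to 12.09, above the most compressed levels. Values are not scaled by gene length, so levels of different genes are not compared. The carcinoma label was met by its markers: Epcam, Krt8, Krt18 and Cdh1 were present in every library, and the summed level of the 5 epithelial markers was 15.21 to 15.36 in control and 15.22 to 15.37 in stress (log2 of the sum). The fifth, Krt7, was also present in every library, and was the only one of the 5 whose groups stood apart, at 12.41, 12.17 and 12.16 in control and 12.15, 11.79 and 11.69 in stress (difference -0.36 ± 0.13 SE; limma adjusted p = 0.221). Markers of several other cell types differed more, although no marker passed the threshold and none was at exactly 0 in all libraries. The summed level of 10 fibroblast markers was 16.45 to 17.55 in control and 16.12 to 16.60 in stress, that of 5 pericyte and smooth muscle markers 12.30 to 12.64 and 11.38 to 12.01, and that of 6 endothelial markers 12.27 to 12.48 and 11.86 to 12.18. The 8 skeletal muscle markers summed to 12.48 to 13.94 in control and 11.27 to 12.89 in stress. The summed level of 7 neutrophil markers went the other way, with 10.68 to 10.84 in control and 11.16 to 11.87 in stress. Of the 7, 6 differences lay above 0 and 1, that of Retnlg, lay below (-0.06). The 5 adipocyte markers, 3 of them under the filter on low values, summed to 9.11 to 9.82 in control and 8.61 to 9.03 in stress. Of the 10 fibroblast differences, 9 lay below 0 and 1, that of Pdgfra, lay above (0.19). The fibroblast and skeletal muscle sums overlapped between the groups. Summed levels of 6 macrophage markers also overlapped, at 13.91 to 14.10 and 13.88 to 14.18. Those of 6 T and NK cell markers did too, at 8.69 to 9.13 and 8.63 to 8.94.

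Tgfb1 encodes the ligand most often linked to carcinoma, made by tumour cells, immune cells and platelets, and lies on chromosome 7 from 25687002 to 25705077 on the plus strand (GRCm38, as for all positions below). Control replicates 1, 2 and 3 had log2 values of 11.35, 11.27 and 11.27, and the stress replicates, in the same order here and below, had 11.36, 11.11 and 11.33. Stress replicate 2 stood below all other libraries, the other 5 lay within a narrow band, and the groups overlapped. The mean was 11.29 ± 0.046 (SD, n = 3) in control and 11.27 ± 0.14 in stress, a difference of -0.03 ± 0.07 (SE; limma adjusted p = 0.889). The interval of that difference ran from -0.20 to 0.15. The sign depended on single libraries: the difference was 0.05 without stress replicate 2 and 0.00073 without control replicate 1. The summed level of 4 platelet markers, of a cell type rich in this ligand, also overlapped, at 8.29 to 8.57 in control and 8.13 to 8.83 in stress. Of the 4, 2 (Ppbp and Gp9) were under the filter on low values, Gp9 at -0.25 to -0.22.

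Tgfb2 encodes a ligand that needs the co-receptor Tgfbr3 for efficient binding to Tgfbr2, and lies on chromosome 1 from 186622792 to 186705989 on the minus strand. Its log2 values were 7.37, 7.57 and 7.50 in control and 7.33, 7.41 and 7.81 in stress. Stress replicate 3 was the highest of the 6 libraries and stress replicate 1 the lowest, so the stress group spanned the control group. The difference of the means was 0.04 ± 0.13 (SE; interval -0.27 to 0.34; limma adjusted p = 0.914). It became -0.11 without stress replicate 3 and -0.02 without control replicate 1, and so carried no stable direction.

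Tgfb3 encodes the third ligand, known from palate and mammary gland development, and lies on chromosome 12 from 86056745 to 86079041 on the minus strand. The log2 values were 11.06, 10.78 and 10.88 in control and 11.21, 11.04 and 10.95 in stress. Replicate 1 was the highest library of each group, and control replicate 1 lay above stress replicates 2 and 3, so the groups overlapped. The mean was 10.91 ± 0.15 (SD, n = 3) in control and 11.07 ± 0.13 in stress, a difference of 0.16 ± 0.09 (SE; interval -0.06 to 0.38; limma adjusted p = 0.410). Its difference was the largest of the 3 ligands, and its sign was the same when each library was left out in turn, with values of 0.09 to 0.24.

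Tgfbr1, the type I receptor kinase that phosphorylates Smad2 and Smad3, lies on chromosome 4 from 47353222 to 47414931 on the plus strand. It had log2 values of 11.55, 11.25 and 11.34 in control and 11.62, 11.52 and 11.31 in stress. The stress libraries covered nearly the same span as the control libraries. The difference of the means was 0.10 ± 0.10 (SE; interval -0.14 to 0.34; limma adjusted p = 0.644). It was 0.03 without control replicate 2 or without stress replicate 1, and 0.19 without control replicate 1 or without stress replicate 3. The libraries ranked as for Tgfb3, with control replicate 1 above 3 above 2 and stress replicate 1 above 2 above 3.

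Tgfbr2, the type II receptor that binds the ligand, lies on chromosome 9 from 116084293 to 116175360 on the minus strand. Its log2 values were 11.75, 12.22 and 11.90 in control and 11.87, 12.07 and 11.73 in stress. Replicate 2 was the highest library of each group, and the groups overlapped nearly in full. The mean was 11.96 ± 0.24 (SD, n = 3) in control and 11.89 ± 0.17 in stress, a difference of -0.07 ± 0.14 (SE; interval -0.39 to 0.25; limma adjusted p = 0.830). Without control replicate 2 the difference was 0.06, and without stress replicate 3 it was 0.01. The summed fibroblast markers stood at 16.45, 17.55 and 17.11 in control and 16.60, 16.40 and 16.12 in stress, so their control libraries ranked as those of Tgfbr2 did, and their stress libraries did not. Their part in the Tgfbr2 values was not tested.

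Tgfbr3 encodes betaglycan, a proteoglycan co-receptor that presents ligands, above all Tgfb2, to Tgfbr2 and also binds inhibin. It lies on chromosome 5 from 107106570 to 107289629 on the minus strand. Its log2 values were 9.95, 9.92 and 9.92 in control and 10.20, 10.09 and 10.19 in stress. All stress libraries stood above all control libraries, and the 3 control libraries were nearly level. The mean was 9.93 ± 0.016 (SD, n = 3) in control and 10.16 ± 0.058 in stress, 0.23 ± 0.05 (SE) above control or 1.17-fold (limma adjusted p = 0.121), rank 307 of 14098 by p. An exact permutation test of 3 libraries against 3 cannot go below p = 0.1, so a single gene cannot pass 0.05 by that test. Across 12 alternative settings, among them the removal of each library in turn, the difference was 0.21 to 0.26 and the adjusted p was 0.107 to 0.342. Tgfbr3 combined a small spread with the largest difference of the 9 members: its SD within groups, pooled, was 0.0426, above that of only 12.3% of tested genes with a like mean. Its absolute difference was above that of 88.0% of all tested genes, a background not matched for level. Beside it, 4 of 7 neutrophil and 1 of 6 macrophage markers stood apart with stress higher, against 12.1% of all tested genes. Apart with stress lower were 4 of 6 endothelial, 3 of 5 pericyte and smooth muscle and 3 of 10 fibroblast markers, against 12.3%. The same held for 2 of 8 skeletal muscle, 2 of 2 tested adipocyte and 1 of 5 epithelial markers. No T and NK cell or platelet marker stood apart. The part of these cells in the Tgfbr3 values was not tested.

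Smad2, a receptor-regulated SMAD, lies on chromosome 18 from 76241580 to 76310963 on the plus strand. It had log2 values of 9.43, 9.53 and 9.33 in control and 9.47, 9.42 and 9.43 in stress. The 3 stress libraries lay close together inside the span of the control libraries. The difference of the means was 0.01 ± 0.06 (SE; interval -0.14 to 0.16; limma adjusted p = 0.965), the smallest of the 9 members. The sign turned without control replicate 3 (-0.04) and without stress replicate 1 (-0.0091).

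Smad3, the receptor-regulated SMAD that binds DNA directly, lies on chromosome 9 from 63646767 to 63757994 on the minus strand. Its log2 values were 12.03, 11.95 and 11.74 in control and 12.28, 12.00 and 11.97 in stress. Stress replicate 1 was the highest library and control replicate 3 the lowest, and the other 4 libraries overlapped. The mean was 11.91 ± 0.15 (SD, n = 3) in control and 12.09 ± 0.17 in stress, 0.18 ± 0.11 (SE) above control or 1.13-fold (interval -0.07 to 0.43; limma adjusted p = 0.427). Without stress replicate 1 the difference was 0.08.

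Smad7, the inhibitory SMAD and itself a direct target gene of the pathway, lies on chromosome 18 from 75367529 to 75395935 on the plus strand. It had log2 values of 9.57, 9.75 and 9.87 in control and 9.97, 9.65 and 9.97 in stress. Stress replicates 1 and 3 were the highest libraries, and stress replicate 2 lay below 2 of the control libraries. The difference of the means was 0.13 ± 0.11 (SE; interval -0.13 to 0.39; limma adjusted p = 0.569). Without stress replicate 2 it was 0.24, and without control replicate 1 it was 0.05. As a feedback transcript Smad7 is often read as a sign of pathway activity, and here its groups overlapped.

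**Figure D2:**
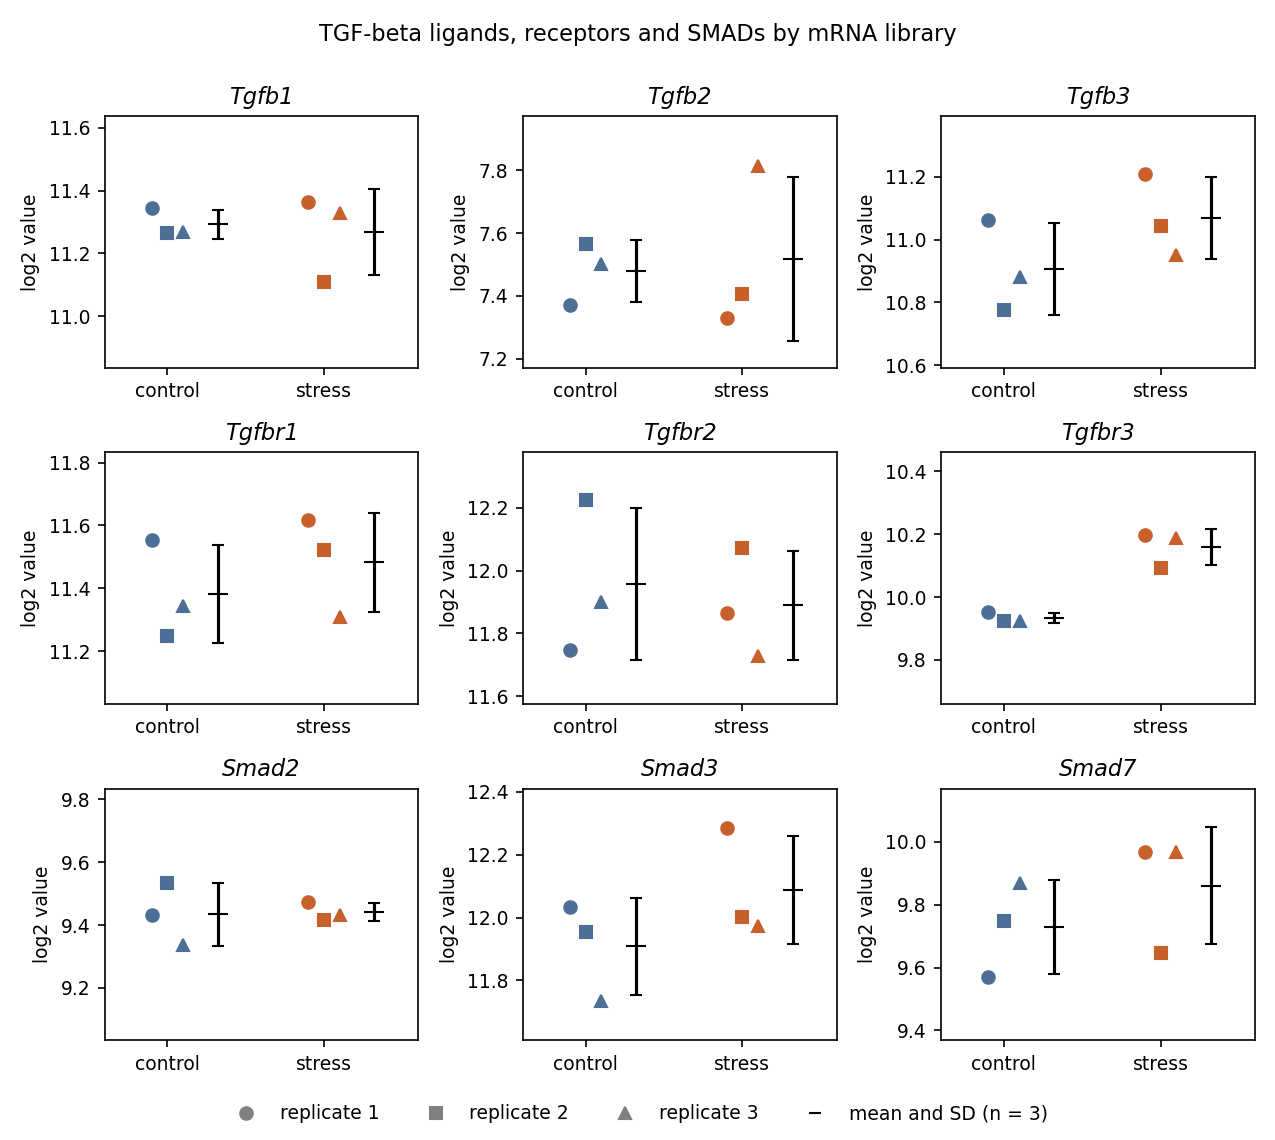
The log2 value of each member in every mRNA library (vertical axes, each of equal height in log2 units but at its own level), with shapes for replicate numbers and black marks for the mean and SD of 3 libraries per group. Tgfbr3 is the only member whose stress libraries (10.09 to 10.20) all lie above its control libraries (9.92 to 9.95).

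For 6 members (Tgfb1, Tgfb2, Tgfbr1, Tgfbr2, Smad2 and Smad7) the SD within groups was wider than the difference between them. The pooled SD within groups ran from 0.0426 for Tgfbr3 to 0.211 for Tgfbr2, and for 7 of the 9 it exceeded that of at least 71.1% of tested genes with a mean level within 0.5 log2 units. Only Smad2 (37.7%) and Tgfbr3 (12.3%) were below the middle of their level. The range over all 6 libraries was smallest for Smad2 (0.198) and widest for Smad3 (0.549). Stress replicate 1 was the highest of the 6 libraries for 5 members, namely Tgfb1, Tgfb3, Tgfbr1, Tgfbr3 and Smad3, and control replicate 1 was the highest control library for 5 members. Control replicate 2 held the highest value for Tgfbr2 and Smad2, and stress replicate 3 for Tgfb2 and Smad7. Replicate numbers were not tied to a shared batch or litter by the labels.

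The 3 members with the smallest p were compared with all other tested genes by the shape of their 6 library values, each centred on its own mean. For Tgfbr3 the nearest were Chchd5, with a root mean square distance of 0.0084 log2 units over the 6 libraries, Zmym2 (0.0099) and the netrin receptor Neo1 (0.017). Their differences between the groups were 0.23, 0.22 and 0.21. For Tgfb3 the nearest included Fgd3 (0.0305) and Ltbp3 (0.033), the latter a latent TGF-beta binding protein that was also on a list below. For Smad3 they were Tcaf1 (0.0411), Mamdc4 (0.0491) and Tex9 (0.0503). These genes were picked for their likeness over 6 libraries, so their differences are a description.

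The other genes of the pathway were taken from 8 lists of 89 genes, of which 77 were tested. None of the 77 passed the threshold, 35 differences lay above 0 and 42 below, and the median was -0.0146. The groups stood apart with stress higher in 8 of the 77 genes, against 12.1% of all tested genes. They stood apart with stress lower in 12, against 12.3%. An unadjusted p under 0.05 was met by 18 of the 77 genes, against 17.4% of all tested genes.

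Among 12 genes for latency and activation of TGF-beta, 6 differences lay on each side of 0 (median 0.04). All 4 latent TGF-beta binding proteins, which tether the latent ligand to the matrix, had differences above 0. Ltbp4 had log2 values of 10.73, 10.98 and 10.90 in control and 11.06, 11.21 and 11.13 in stress, a difference of 0.26 ± 0.08 (SE; limma adjusted p = 0.166). Ltbp1 had 12.56, 12.40 and 12.54 in control and 12.78, 12.64 and 12.88 in stress, a difference of 0.27 ± 0.08 (adjusted p = 0.171). In both genes all stress libraries stood above all control libraries. Fbn1, the fibrillin of the microfibrils that hold these proteins, stood in the opposite order and was named after its values were seen. Its log2 values were 11.61, 12.78 and 11.98 in control and 11.40, 11.13 and 10.93 in stress, a difference of -0.97 ± 0.29 (SE; adjusted p = 0.180). Its control replicate 2 was the highest library, as it was for the fibroblast markers summed (17.55), and their part in the Fbn1 values was not tested.

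Of 11 listed activin, BMP and GDF ligands 6 were tested, and none stood apart between the groups (median -0.02). Inhba, the activin A subunit, differed by -0.27 ± 0.19 (SE; adjusted p = 0.481), and Inhbb by 0.10 ± 0.07 (adjusted p = 0.499). Without control replicate 2 these were -0.06 and 0.05, and without stress replicate 2 they were -0.17 and 0.05. Of 11 other receptors of the superfamily 9 were tested, with 5 differences above 0 and 4 below. Bmpr1b differed by -0.13 ± 0.07 (adjusted p = 0.349) and Acvr1, a type I receptor also known as ALK2, by 0.14 ± 0.07 (adjusted p = 0.363; 0.08 without stress replicate 3). The other SMADs gave 4 tested genes, all with differences above 0 (median 0.08). Smad1, which signals for bone morphogenetic proteins, had log2 values of 9.94, 9.93 and 9.94 in control and 10.14, 9.96 and 10.19 in stress, a difference of 0.16 ± 0.07 (SE; adjusted p = 0.281), and its groups did not overlap. Smad4, the shared partner of Smad2 and Smad3, differed by 0.12 ± 0.06 (adjusted p = 0.352) with overlapping groups.

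The 17 intracellular regulators had 10 differences above 0 and 7 below (median 0.02). Tgif1, a nuclear corepressor of SMAD transcription, had log2 values of 11.22, 11.31 and 11.35 in control and 11.57, 11.49 and 11.78 in stress, a difference of 0.32 ± 0.08 (SE; adjusted p = 0.144). Zfyve9, also called SARA, which brings Smad2 and Smad3 to the receptor, had 9.52, 9.50 and 9.59 in control and 9.77, 9.77 and 9.69 in stress, a difference of 0.20 ± 0.05 (adjusted p = 0.151). Both genes stood apart with stress higher and neither passed the threshold. Pmepa1, a feedback inhibitor induced by the pathway and named after its values were seen, was at 12.58, 12.46 and 12.40 in control and 12.33, 12.21 and 12.37 in stress, with stress lower in every library (difference -0.17 ± 0.07 SE; adjusted p = 0.255). Smad7, also a feedback gene, differed by 0.13 with overlapping groups and an interval that included 0, so no contrast with Pmepa1 is drawn. The regulators apart with stress higher were Tgif1, Zfyve9 and Skil (0.10), 3 of 17 against 12.1% of all tested genes. Those apart with stress lower were Pmepa1, Bambi (-0.11) and Ldlrad4 (-0.12), 3 of 17 against 12.3%. Skil, Bambi and Ldlrad4 were also named after their values were seen.

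Of 9 extracellular antagonists 5 were tested. Fst encodes follistatin, which traps activins and, more weakly, some bone morphogenetic proteins. It had log2 values of 8.35, 8.52 and 8.52 in control and 7.95, 7.70 and 7.55 in stress, so that every stress library stood below every control library. The difference of -0.73 ± 0.11 (SE; 1.66-fold lower; limma adjusted p = 0.0769) was the nearest to the threshold of all 77 genes on the pathway lists. Chrd differed by 0.05 ± 0.07 (adjusted p = 0.740), and its sign turned without stress replicate 2 (-0.02).

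The 20 genes known to be induced by TGF-beta stood mostly lower in stress: 16 differences lay below 0 and 4 above, with a median of -0.34 beside 0.0014 over all tested genes. None passed the threshold (adjusted p 0.111 to 0.919). In 6 of the 20 all stress libraries stood below all control libraries, where 12.3% of all tested genes did so. Acta2, smooth muscle actin and a marker of myofibroblasts, had log2 values of 11.34, 11.52 and 11.40 in control and 10.95, 10.32 and 10.66 in stress, a difference of -0.77 ± 0.15 (SE; adjusted p = 0.111). Zeb1, a repressor of epithelial genes in EMT, had 9.34, 9.25 and 8.83 in control and 8.42, 8.67 and 8.32 in stress, a difference of -0.67 ± 0.15 (adjusted p = 0.120). The groups of both genes stood apart. Without control replicate 2 the median of the list was -0.20, and without any 1 of the other libraries it was -0.44 to -0.23. Of the 20 genes, 5 (Col1a1, Col1a2, Col3a1, Postn and Acta2) also stood on the fibroblast or the pericyte and smooth muscle list. As given above, the summed pericyte and smooth muscle level was lower in every stress library, while the summed fibroblast levels overlapped between the groups. Such sums weigh genes with high values most. For fibroblasts these were Col1a1, Col1a2 and Col3a1, and for pericytes and smooth muscle Acta2. As these genes are also on the induced list, the sums are not a separate measure of cell content. The other 15 of the 20 induced genes had a median of -0.11, with 11 differences below 0, 4 above and 4 genes apart with stress lower. Only genes on those marker lists were set aside, so the 15 may still hold genes of these cells. The part of fibroblast and smooth muscle content in these values was not tested. Fn1, which encodes fibronectin and was named after its values were seen, had a difference of 0.20 ± 0.10 (SE; adjusted p = 0.349).

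**Figure D3:**
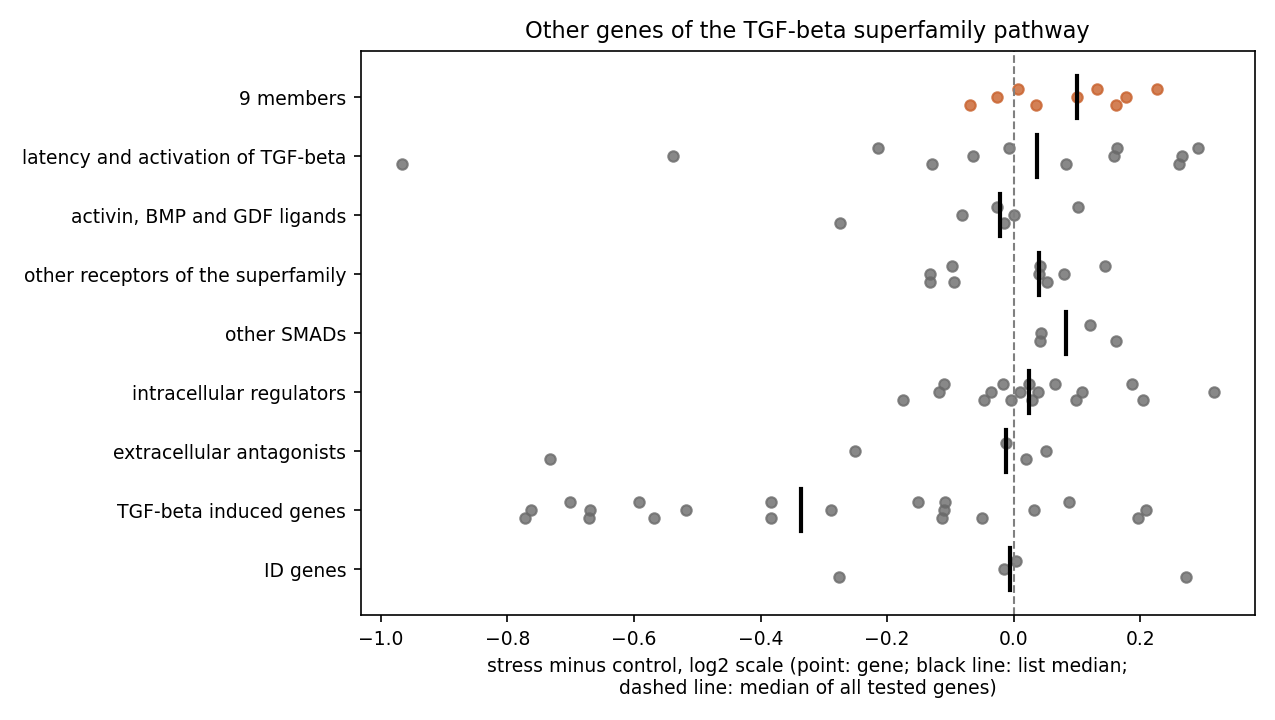
Difference between stressed and control tumours in log2 values (horizontal axis) for each tested gene (points) of the 9 members and of the 8 pathway lists, with the median of each list as a black line and the median of all tested genes dashed. The TGF-beta induced genes have the lowest median (-0.34) and the 9 members the highest (0.10), and no point passed the adjusted p threshold.

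The 4 ID genes, targets of the bone morphogenetic protein branch that TGF-beta can repress, split evenly by sign. Id2 differed by 0.27 ± 0.08 (SE; adjusted p = 0.180) and Id1 by -0.28 ± 0.10 (adjusted p = 0.235; -0.18 without control replicate 1), each with groups that did not overlap. Id3 and Id4, named after their values were seen, differed by 0.004 and -0.01.

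The miRNA libraries held 1738056 to 3202224 counts and gave 462 tested miRNAs. The edgeR test called none of them (0% of 462), with 110 at an unadjusted p under 0.05, but DESeq2 on the same counts called 11 higher and 33 lower, and edgeR without a filter on low counts 18 and 51. Single calls are therefore given with their tool. Whether mRNA and miRNA libraries with the same number share a tumour is not stated in the labels. Listed miRNAs were 24 in 8 families that share a seed, bases 2 to 8 of the mature miRNA, by which a miRNA pairs with the 3′ UTR of its targets. The let-7, miR-17 and miR-200 families are known to target receptors or ligands of the pathway, miR-21a is induced by it after transcription, and miR-337-3p is named in the study's title. Mature sequences were matched for 22 of the 24 miRNAs (RefSeq, GRCm38.p6). The ones below show 1 miRNA for each seed, and both for miR-141-3p and miR-200a-3p, which differ outside the seed. They are printed 5′ to 3′ with the seed in capitals.
let-7i-5p: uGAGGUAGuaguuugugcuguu
miR-20a-5p: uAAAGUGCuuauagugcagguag
miR-141-3p: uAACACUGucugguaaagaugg
miR-200a-3p: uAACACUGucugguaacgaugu
miR-200b-3p: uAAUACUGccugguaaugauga
miR-21a-5p: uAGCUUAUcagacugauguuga
miR-337-3p: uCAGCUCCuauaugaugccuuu

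Matches to these seeds were sought in 1 protein-coding transcript per gene, the one with the longest 3′ UTR in GENCODE M21, on the sense strand only. The strings searched were CTACCTC for let-7, GCACTTT for miR-17 and its kin, CAGTGTT for miR-141-3p and miR-200a-3p, CAGTATT for miR-200b-3p and its kin, ATAAGCT for miR-21a-5p and GGAGCTG for miR-337-3p. No matches overlapped in Tgfb2, Tgfbr1, Tgfbr2, Tgfbr3 or Smad3. The ligands Tgfb1 and Tgfb3, with 3′ UTRs of 135 and 1035 bases, held none of the 6 strings. Tgfb2 (2656 bases) and the 3 receptors (3069 to 6085 bases) each held a match for miR-141-3p and miR-200a-3p, and Tgfb2 and Tgfbr3 held 2. The sites below are all 3 matches in Tgfbr3, the member with the smallest p, and, as examples, some of those in Tgfb2, Tgfbr1 and Tgfbr2, with which it acts. Other matches in these 3 genes are not shown. The match is in capitals, and each window is 29 bases of the transcript.
Tgfbr3, miR-141/200a, chr5:107108535-107108563, minus strand: ctgagctcagtgactcttCAGTGTTaaaa
Tgfbr3, miR-141/200a, chr5:107107412-107107440, minus strand: tcctcccagctcttgttaCAGTGTTtctg
Tgfbr3, let-7, chr5:107106957-107106985, minus strand: tgtctttttgtactgtaaCTACCTCatgg
Tgfb2, miR-141/200a, chr1:186625332-186625360, minus strand: gagggagttttgattcatCAGTGTTtaaa
Tgfb2, miR-141/200a, chr1:186624052-186624080, minus strand: agctaggtttgagctccaCAGTGTTtcag
Tgfbr1, let-7, chr4:47410825-47410853, plus strand: tttaggaggctggttgttCTACCTCactg
Tgfbr2, miR-20a-5p, chr9:116090070-116090098, minus strand: caacagccaataacgtttGCACTTTatta
Tgfbr1, miR-337-3p, chr4:47411040-47411068, plus strand: acaactgccagcccttagGGAGCTGctgt
Tgfbr2, miR-337-3p, chr9:116090245-116090273, minus strand: ttgctcccttcttccccaGGAGCTGcccc

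Such strings are common in long UTRs. The miR-141/200a match was held by 5 of the 9 members, by 17.1% of 20996 genes with a 3′ UTR, and by 39.1% of the 5066 genes whose 3′ UTR has 2000 to 7000 bases. The miR-337-3p match was likewise held by 5 members, by 14.7% of all genes and by 30.9% of those with long UTRs. The let-7 match was held by 3 members, against 8.95% and 18.6%, and the miR-21a-5p match by 3, against 7.13% and 16.9%. The miR-17 match was held by 3 members, against 11.7% and 26.4%, and the miR-200b match by 2, against 13.2% and 29.1%. Of the 6 members with a 3′ UTR of 2000 to 7000 bases, 3 held the let-7 match, 2 the miR-21a-5p match, 2 the miR-17 match and 1 the miR-200b match. These 6 members included all 5 holders of the miR-141/200a match and all 5 holders of the miR-337-3p match. A match describes these letters and does not show that the miRNA acts there.

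**Figure D4:**
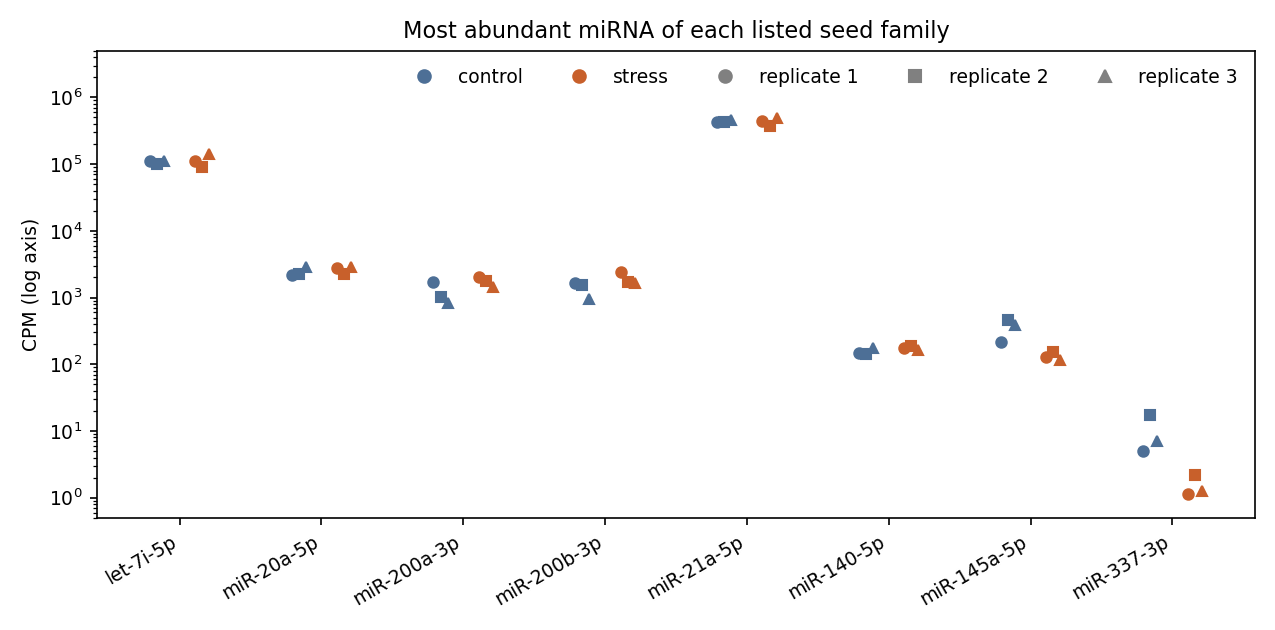
Counts scaled to library size (CPM) of the most abundant miRNA of each listed family in every miRNA library (vertical log axis), in control and stress replicates 1 to 3. The miR-145a-5p and miR-337-3p points lie lower in all stress libraries than in all control libraries, and those of the other 6 miRNAs overlap.

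The miRNAs that share the match in Tgfb2 and the receptors stood higher in stress without passing the edgeR threshold. The miR-200a-3p level was 1709, 1014 and 815 CPM in control and 2028, 1771 and 1463 CPM in stress, a log2 difference of 0.57 (edgeR adjusted p = 0.266). The miR-141-3p level was 102, 41.6 and 37.8 CPM in control and 146, 92.9 and 106.1 CPM in stress, a log2 difference of 0.94 (adjusted p = 0.214). Control replicate 1 lay within the stress range for both, and the groups overlapped. Without control replicate 1 miR-200a-3p was called (0.97, edgeR adjusted p = 0.0132), as it was without the filter on low counts (0.59, adjusted p = 0.0372), and over its alternatives the adjusted p ran from 0.0132 to 0.530. The 3 miRNAs that share the seed of miR-200b-3p had log2 differences of 0.46 to 0.55, that of miR-200b-3p being 0.25 without control replicate 3 or without stress replicate 1. Zeb1, which these families are known to target and which represses their genes, was among the TGF-beta induced genes given above with stress lower. It did not pass the limma threshold either, and a link between these values was not tested.

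The let-7 family had 9 of 9 differences above 0, none of them large (0.03 to 0.28), and its most abundant member let-7i-5p stood at 111400, 99760 and 110700 CPM in control and at 110000, 91140 and 140200 CPM in stress. The miR-17 family had 5 of 6 above 0, with miR-20a-5p at a log2 difference of 0.09 (edgeR adjusted p = 0.767) that ran from 0.03 to 0.23 with 1 library left out. In the same family miR-93-5p was the only listed miRNA whose stress libraries all stood above its control libraries, at 1809, 1584 and 1835 CPM in control and 2129, 1951 and 2307 CPM in stress, a log2 difference of 0.29 (adjusted p = 0.247). The most abundant miRNA on the lists, miR-21a-5p, had 372700 to 496600 CPM over the 6 libraries and a log2 difference of 0.02 (adjusted p = 0.911). For miR-140-5p the log2 difference was 0.18 (adjusted p = 0.542).

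Of the listed miRNAs that lead a family, 2 stood lower in every stress library than in any control library. The level of miR-145a-5p, a miRNA of smooth muscle cells and pericytes, was 213, 465 and 390 CPM in control and 128, 152 and 116 CPM in stress, a log2 difference of -1.43 (edgeR adjusted p = 0.138). DESeq2 called it (-1.44, adjusted p = 0.00435), and over its alternatives the adjusted p ran from 2.18e-07 to 0.369. The pericyte and smooth muscle markers of the mRNA libraries were also lower in stress (12.30 to 12.64 against 11.38 to 12.01), and their part in this value was not tested. For miR-337-3p the reads were few, 11, 48 and 22 in control and 3, 5 and 2 in stress, which is 5.04, 17.5 and 7.17 CPM against 1.13, 2.22 and 1.26. Its fitted log2 difference was -2.65 (edgeR adjusted p = 0.138; DESeq2 -2.70, adjusted p = 0.0183). Over the alternatives the edgeR and DESeq2 adjusted p of miR-337-3p ran from 3.9e-05 to 0.369. The 5 members with its match had differences of 0.04 (Tgfb2), 0.10 (Tgfbr1), -0.07 (Tgfbr2), 0.01 (Smad2) and 0.18 (Smad3), none past the threshold.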

How the data were processed

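The mRNA table was deposited by the authors as normalized log2 values. It is named as counts, but the values are fractional and run from -1.97 to 17.85. The tools bcl2fastq and kallisto 0.46.1 and the build mm10 are named in the submitters' processing notes. The normalization, the transform and the base of the logarithm are not given in the sources used here, and base 2 was assumed, since powers of 2 sum to the size of a sequencing library. The compression of low values may understate differences of weakly expressed genes. Of 35453 entries, 12658 at 0 in all libraries and 26 that bore dates were left out. The 14098 genes with a mean of at least 4 were fitted with limma 3.58.1 in R 4.3.3 (variance trend, robust estimation), two-sided, with Benjamini-Hochberg adjustment over all of them and calls at an adjusted p under 0.05.

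The miRNA values are read counts as the authors deposited them, with a counting tool not given in the sources used here. Of 2128 entries, 1978 mature miRNAs were left after taking the precursor with the most reads, and edgeR 4.0.16 (TMM, filterByExpr, robust quasi-likelihood) tested 462. CPM values were computed from these counts with TMM library sizes. The reads carry no molecular identifiers.

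No covariate was used. Groups came from the sample titles. No 2 mRNA libraries held identical values. Members and lists were chosen with earlier results of these data known. All members are named, with the 2 smallest p of each pathway list, the summed level of each marker list and the 3 nearest genes of 3 members, except 1 that is not reported here. Ccn2 is listed in the table as Ctgf. Positions and UTRs are from GENCODE M21 on GRCm38, the assembly also called mm10. Alternatives were other filters, scalings and variance settings, each library left out, the replicate number as a block, and DESeq2 1.42.0 for miRNAs. Both fits were tested on simulated data.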

Additional observations from a re-analysis of the deposited data

How the results depend on the processing

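No member was called under any of 12 alternatives, and their median difference was 0.05 to 0.10. Tgfb3, Tgfbr1, Tgfbr3, Smad3 and Smad7 had differences above 0 in all of them. Leaving out libraries turned the sign of Tgfb1 (-0.0733 to 0.0527), Tgfb2 (-0.113 to 0.13), Tgfbr2 (-0.173 to 0.0648), Smad2 (-0.0419 to 0.0571), Chrd (-0.0172 to 0.101), miR-21a-5p (-0.0740 to 0.152) and let-7i-5p (-0.0936 to 0.244). The cause was not tested. Over all genes, 3 higher and 2 lower calls became 4 higher and 7 lower with a filter at 6, 3 higher and 5 lower after quantile normalization, and 1 higher and 1 lower without trend and robust estimation. Without 1 library they ran from 0 to 4 higher and 0 to 2 lower. Over all miRNAs, 0 calls became 18 higher and 51 lower without a filter and 11 and 33 by DESeq2. Without 1 library they ran from 0 to 18 higher and from 0 to 64 lower, the most without control replicate 1. The alternatives for pathway genes other than the members were chosen after seeing the data.

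Same-numbered mRNA libraries of the groups had correlations of -0.079, 0.0815 and -0.018 between their deviations. There were 0 replicate numbers whose control and stress libraries were each the best match of the other. The labels do not tie the numbers to a pairing, and the main fit used none. With the replicate block 0 genes were higher and 0 lower, 0 miRNAs were called, and Tgfbr3 kept 0.23 (adjusted p = 0.197). Depth is unknown for the mRNA values. For miR-337-3p, 2 to 5 reads per stress library limit the precision.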
